A study of Mus musculus with 6 samples.

Results

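The genes described here are the sensors and effectors of the unfolded protein response, 10 in number among 30702 genes that the array names. They were listed by name: Ern1, Xbp1, Atf6, Atf6b, Eif2ak3, Atf4, Ddit3, Ppp1r15a, Trib3 and Chac1. Each gene was read at the probe set that carries its symbol and no other, and where a gene had several, at the brightest over the 6 arrays. All 10 were measured, on 11 probe sets, since Ddit3 had a second one. Whole-transcript microarrays were hybridised with RNA from the inguinal fat pad, a subcutaneous white fat, of 2-month-old C57BL/6 males, and each array is labelled as a biological replicate. The KO group, 3 mice, carried TFG f/f together with Adipoq-ERT2Cre, a Cre recombinase that tamoxifen activates and that the adiponectin promoter confines to adipocytes, so the blood vessel, immune and stromal cells of the fat pad keep the gene. The WT group, 3 mice, carried TFG f/f without Cre. Both groups were injected with tamoxifen for 5 days, and RNA was taken 2 weeks later. The protein made from Tfg sits where secretory cargo leaves the endoplasmic reticulum in COPII vesicles.

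The unfolded protein response is the set of signals by which a cell reacts when proteins fail to fold in the endoplasmic reticulum. It runs through 3 sensors in the membrane of that compartment. IRE1, encoded by Ern1, cuts the Xbp1 messenger RNA so that it is spliced into the form for an active transcription factor. ATF6 moves to the Golgi, is cleaved there and becomes a transcription factor, and ATF6B is its relative. PERK, encoded by Eif2ak3, phosphorylates the translation factor eIF2 alpha, which lowers protein synthesis in general while the Atf4 message is translated more. Adipocytes secrete much protein, adiponectin among it. Most of these steps act on protein or splicing, and an array reads total RNA per gene, so sensor activity, Xbp1 splicing and Atf4 translation were not measured.

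The values are log2 signals as deposited, and each mean is over n = 3 arrays. Array medians lay between 6.47 and 6.76 for the KO-labelled and between 6.96 and 7.02 for the WT-labelled arrays. KO-labelled array 2 stood apart, with correlations across probe sets of 0.96 with each of its group's other arrays, against 0.984 to 0.986 among the WT-labelled arrays. The Tfg probe set was not lower on the KO-labelled arrays, at 8.08 ± 0.12 (SD) against 7.94 ± 0.03 (SD) on the WT-labelled arrays, and the exons it reads are not given. Its KO-labelled values of 7.99, 8.21 and 8.03 all lay above its WT-labelled values of 7.97, 7.94 and 7.91. Its difference of 0.14 ± 0.11 (SE) did not pass in limma (adjusted p = 0.345). After centring on the mean of 14 housekeeping genes it was -1.19 (adjusted p = 0.00501), and 60587 of all probe sets were then called lower. That centring lowered nearly all probe sets, so the negative value it gave Tfg is no check of the labels. The Tfg difference was 0.32 after quantile normalization and 0.47 after centring on the array median. It passed in limma in neither (adjusted p = 0.134 and 0.106). On the deposited values the probe set does not bear the labels out. The arrays are thus called KO-labelled and WT-labelled throughout. Fabp4, a fatty acid binding protein gene, was at 19.04 ± 0.46 on KO-labelled and 16.52 ± 1.84 on WT-labelled arrays (SD). It and the adipocyte markers named next lie outside the rule for naming and were chosen after their values were seen. On every WT-labelled array Fabp4 and Cebpa lay above the 95th percentile of 1088 olfactory receptor genes (9.81 to 10.12), taken as background. Plin1, Pparg, Lipe, Adig and Lep lay below it on each, and Adipoq, Cidec, Retn and Aqp7 on some. Adig (6.30 to 6.58) and Lep (6.32 to 6.92) also lay below the olfactory medians there (7.39 to 7.60). The marker list as a whole thus did not show fat above this background on the WT-labelled arrays. Fewer cells of a type and less RNA per cell cannot be told apart in bulk tissue.

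Of the 10 genes only Atf4 passed the test for a difference between the groups, and it was higher on the KO-labelled arrays. Xbp1 and Atf6 were higher on all 3 KO-labelled arrays than on any WT-labelled one without passing. The other 7 genes, Ern1, Atf6b, Eif2ak3, Ddit3, Ppp1r15a, Trib3 and Chac1, overlapped between the groups. The test was limma across all 65956 probe sets with Benjamini-Hochberg adjustment, and calls needed an adjusted p below 0.05. By this rule 1 of the 10 genes was called higher and 0 lower, against 5.32% of all probe sets called higher and 15.6% called lower. Among protein-coding genes 10.7% were called higher and 10.2% lower, so the count of 1 in 10 is near the background of that class. The 3 KO-labelled values all lay above the 3 WT-labelled values in 3 of the 10 genes and all below them in 0, against 11.1% and 44.9% of all probe sets. At an unadjusted p under 0.05 there were 3 of the 10 genes, a smaller share than the 31589 of all 65956 probe sets.

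**Figure D1:**
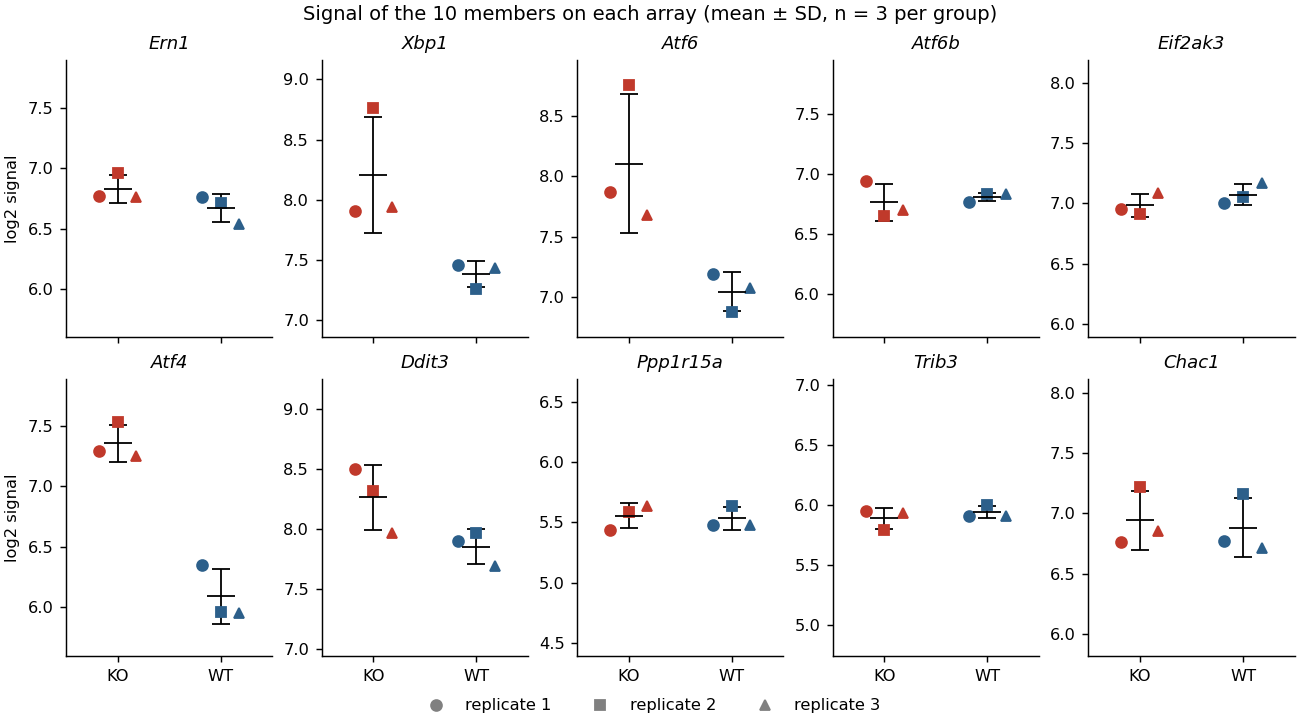
Log2 signal (y axis, each panel spanning the same range of log2 units around its own gene) of the 10 genes on each KO and WT array (x axis). Points are arrays, bars the mean and SD of 3 arrays. Atf4, Xbp1 and Atf6 are the panels in which no KO point reaches down to a WT point.

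In the IRE1 arm, the sensor gene and its target differed in what they showed. Ern1 read 6.77, 6.96 and 6.76 on the KO-labelled arrays, against 6.76, 6.71 and 6.54 on the WT-labelled arrays. The lowest KO-labelled value equalled the highest WT-labelled one, and the difference of 0.16 ± 0.12 (SE) did not pass (adjusted p = 0.316, 95% interval -0.14 to 0.46). Xbp1 read 7.91, 8.76 and 7.94 on the KO-labelled arrays, against 7.46, 7.26 and 7.43 on the WT-labelled arrays. All KO-labelled values were above all WT-labelled ones, and KO-labelled array 2 was well above the other two. The difference of 0.82 ± 0.25 (SE), or 1.77-fold, missed the threshold (adjusted p = 0.0587). Over the 6 fits that each left out 1 array the difference ran from 0.54 to 0.97 and the adjusted p from 0.0388 to 0.143. Only the fit without KO-labelled array 2, with the difference of 0.54, passed.

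The Xbp1 promoter is shown because XBP1 and ATF6 are known to act on genes through short elements that can be looked for in it. The window covers 250 bases before and 50 bases after the start of the gene, from RefSeq, build GRCm38.p6, chr11:5520391-5520690, plus strand, and is written 5′ to 3′. Capitals would mark a match to any of 6 motifs searched on both strands, and it holds none.
Xbp1: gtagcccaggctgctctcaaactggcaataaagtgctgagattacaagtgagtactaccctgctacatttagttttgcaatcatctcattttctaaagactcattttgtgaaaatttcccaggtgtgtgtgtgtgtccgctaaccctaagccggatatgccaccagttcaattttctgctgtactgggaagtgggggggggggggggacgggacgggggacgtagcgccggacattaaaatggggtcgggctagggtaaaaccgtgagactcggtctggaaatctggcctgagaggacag
The motifs were the pentamer CCACG and the pentamer CCAAT, the endoplasmic reticulum stress response elements ERSE and ERSE-II, which combine both, the XBP1 element TGACGTGG, which contains CCACG on its other strand, and TGATGNAA. The last is the core of the composite element bound by ATF4 with C/EBP factors. Absence of a match says only that these letters do not stand in this window.

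In the ATF6 arm, the gene of the main sensor and that of its relative also differed. Atf6 read 7.87, 8.76 and 7.68 on the KO-labelled arrays, against 7.19, 6.87 and 7.07 on the WT-labelled arrays. As for Xbp1, the groups did not overlap and KO-labelled array 2 was the highest. The difference of 1.06 ± 0.30 (SE), or 2.08-fold, missed the threshold narrowly (adjusted p = 0.0512). Over the 6 fits that each left out 1 array the difference ran from 0.73 to 1.27 and the adjusted p from 0.0369 to 0.133. Only the fit without KO-labelled array 2, with the difference of 0.73, passed. Atf6b read 6.94, 6.65 and 6.70 on the KO-labelled arrays, against 6.77, 6.83 and 6.83 on the WT-labelled arrays. Its KO-labelled values lay on both sides of the WT-labelled ones, and the difference of -0.05 ± 0.12 (SE) had a 95% interval of -0.34 to 0.25 (adjusted p = 0.767).

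In the PERK arm, the kinase gene overlapped between the groups and the gene of the transcription factor below it rose. Eif2ak3 read 6.95, 6.91 and 7.09 on the KO-labelled arrays, against 7.0, 7.05 and 7.17 on the WT-labelled arrays. The difference of -0.09 ± 0.11 (SE) did not pass (adjusted p = 0.533, 95% interval -0.37 to 0.19). Atf4 read 7.29, 7.53 and 7.25 on the KO-labelled arrays, against 6.35, 5.96 and 5.95 on the WT-labelled arrays. Every KO-labelled value was far above every WT-labelled one, and KO-labelled array 2 was close to the other two. Atf4 averaged 7.36 ± 0.15 (SD) on KO-labelled and 6.09 ± 0.23 (SD) on WT-labelled arrays, a rise of 1.27 ± 0.16 (SE), or 2.41-fold in signal (adjusted p = 0.0354). The WT-labelled mean lay below the median signal of 1088 olfactory receptor genes on the WT-labelled arrays (7.39 to 7.60), so this probe set is not shown to be above background there and the fold is not a ratio of known RNA levels. On the KO-labelled arrays Atf4 lay above the olfactory medians, which were lower there (6.32 to 6.87), but under the 95th percentiles (8.02 to 9.18). The WT-labelled means of Atf6 (7.04) and Xbp1 (7.38) also lay below the WT-labelled olfactory medians, so their folds carry the same limit. The difference of Atf4 was larger than that of 95.2% of protein-coding genes. Leaving out an array kept the difference between 1.18 and 1.40, but the call was lost without KO-labelled array 3 or any of the 3 WT-labelled arrays (highest adjusted p = 0.114), and then no probe set at all was called.

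None of the 4 ATF4 targets among the 10 genes passed the test. Ddit3, which encodes the pro-apoptotic transcription factor CHOP, read 8.50, 8.32 and 7.97 on the KO-labelled arrays, against 7.90, 7.97 and 7.69 on the WT-labelled arrays. The highest WT-labelled value equalled the lowest KO-labelled one, and the difference of 0.41 ± 0.17 (SE) did not pass (adjusted p = 0.111, 95% interval -0.01 to 0.83). Its second probe set read 8.24, 8.32 and 7.92 on the KO-labelled arrays, against 7.86, 7.56 and 7.71 on the WT-labelled arrays. There the groups did not overlap, and the difference of 0.45 ± 0.16 (SE) did not pass either (adjusted p = 0.0738). Ppp1r15a encodes GADD34, the regulatory subunit that directs a phosphatase to eIF2 alpha and so ends the block of translation. It read 5.44, 5.59 and 5.64 on the KO-labelled arrays, against 5.48, 5.64 and 5.48 on the WT-labelled arrays, a difference of 0.02 ± 0.12 (SE, adjusted p = 0.881).

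Trib3 encodes a pseudokinase that restrains AKT and ATF4. It read 5.95, 5.79 and 5.93 on the KO-labelled arrays, against 5.91, 6.00 and 5.91 on the WT-labelled arrays, and the groups overlapped (difference -0.05 ± 0.11, SE, adjusted p = 0.717). Chac1 encodes an enzyme that degrades glutathione. It read 6.76, 7.22 and 6.85 on the KO-labelled arrays, against 6.77, 7.16 and 6.71 on the WT-labelled arrays, with 1 high array in each group (difference 0.06 ± 0.19, SE, adjusted p = 0.796). The 95% intervals of the last 3 genes were -0.26 to 0.31 for Ppp1r15a, -0.31 to 0.21 for Trib3 and -0.40 to 0.52 for Chac1. Each lies below the interval of Atf4, which was 0.88 to 1.66. A test that is not passed does not show that the levels were alike, and these arrays carry no detection call. On the single arrays, 1088 olfactory receptor genes, which are not known for a role in fat, ranged from 4.98 (5th percentile) to 8.02 (95th percentile) on KO-labelled array 2 and from 5.88 to 10.12 on WT-labelled array 3. Signals of 5 to 8 are therefore not by themselves a sign that a gene was expressed.

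The promoters of Atf4, Trib3 and Chac1 are shown to set the regulator beside its known targets. They are RefSeq windows of the same kind in GRCm38.p6, at chr15:80254934-80255233 (plus strand), chr2:152344011-152344310 (minus strand) and chr2:119350992-119351291 (plus strand). Capitals mark matches to the motifs named above, and those in Chac1 and Trib3 include the ATF4 composite core.
Atf4: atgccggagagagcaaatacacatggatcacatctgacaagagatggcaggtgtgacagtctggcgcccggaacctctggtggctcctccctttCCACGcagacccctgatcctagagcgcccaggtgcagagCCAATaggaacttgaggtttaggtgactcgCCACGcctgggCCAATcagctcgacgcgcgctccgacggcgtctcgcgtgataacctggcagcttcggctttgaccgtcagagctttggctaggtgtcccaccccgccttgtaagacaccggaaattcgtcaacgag
Trib3: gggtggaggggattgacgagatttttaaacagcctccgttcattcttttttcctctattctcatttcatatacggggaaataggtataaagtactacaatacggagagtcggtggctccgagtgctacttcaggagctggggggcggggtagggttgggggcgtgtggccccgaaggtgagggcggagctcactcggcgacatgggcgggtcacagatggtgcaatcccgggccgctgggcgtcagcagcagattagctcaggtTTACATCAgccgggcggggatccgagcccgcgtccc
Chac1: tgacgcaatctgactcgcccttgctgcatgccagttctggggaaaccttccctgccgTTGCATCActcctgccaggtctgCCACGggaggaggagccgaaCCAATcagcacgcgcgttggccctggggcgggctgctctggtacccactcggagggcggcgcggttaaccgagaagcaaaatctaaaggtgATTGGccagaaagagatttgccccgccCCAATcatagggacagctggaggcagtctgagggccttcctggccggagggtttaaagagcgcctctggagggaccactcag
Counting from the start of the gene, TGATGNAA stood on the other strand at -193 to -186 in Chac1 and at 15 to 22 in Trib3. Among the 9 genes with a window, which are all but Atf6, these were the 2 with that core, while 3.97% of all 32851 windows held it. CCAAT stood in 5 of the 9 (Atf6b, Eif2ak3, Atf4, Ddit3 and Chac1) and in 37.4% of all windows, and CCACG in 4 of the 9 (Ern1, Atf4, Ppp1r15a and Chac1) and in 32.8%. ERSE, ERSE-II and TGACGTGG stood in 0 of the 9, and in 0.119%, 0.0365% and 0.676% of all windows. The Atf4 window held 2 copies each of CCAAT and CCACG, which did not form an ERSE. A match is a description of letters, not of binding. The genes whose windows hold the ATF4 core were among those whose groups overlapped.

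**Figure D2:**
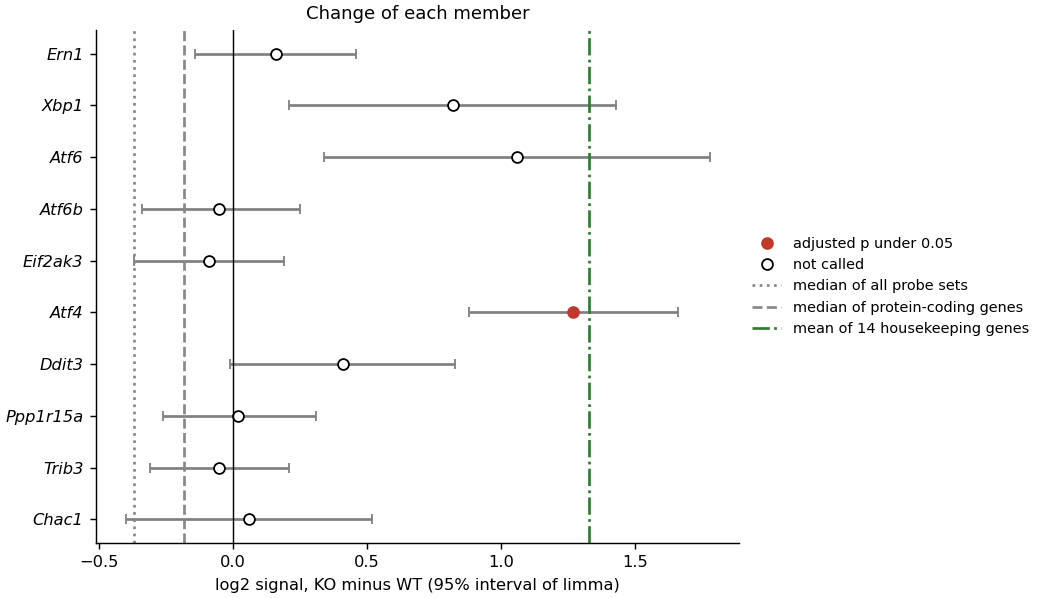
Difference in log2 signal, KO minus WT (x axis), of each of the 10 genes (y axis), with limma's 95% interval. Dotted, dashed and dash-dotted lines mark the median of all probe sets (-0.37), the median of protein-coding genes (-0.18) and the mean of 14 housekeeping genes (1.33). The interval of Atf4 lies above 0 and includes the housekeeping mean.

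What these differences are set against changes how they read. The median difference of the 10 genes was 0.11, against -0.37 over all probe sets and -0.18 over 19232 protein-coding genes. Relative to the median probe set, Atf4 stood at 1.64, Atf6 at 1.43, Xbp1 at 1.19 and Ddit3 at 0.78, and the other 6 genes between 0.28 and 0.53. The 14 measured housekeeping genes averaged between 10.38 and 11.12 on KO-labelled arrays and between 9.15 and 9.50 on WT-labelled arrays, a mean difference of 1.33. Relative to that mean, Atf4 stood at -0.06, Atf6 at -0.27 and Xbp1 at -0.51, so none of the 10 genes was above it. The median of the housekeeping differences was lower, at 1.14, and Atf4, with a difference of 1.27, was above that median. The housekeeping genes themselves differed widely, by -0.28 to 4.83, with B2m, a subunit gene of MHC class I named after its value was seen, the highest. B2m raises the mean, so every reading relative to the housekeeping mean depends on it in part. Over all probe sets 3509 were called higher and 10282 lower on the deposited values, 5146 higher and 3259 lower after centring each array on its median, 4032 and 2212 after quantile normalization, and 558 and 60587 after centring on the housekeeping mean. Atf6 was called in 8 and Xbp1 in 3 of the 12 alternatives that kept all arrays, Atf6 for example after centring on the array median (difference 1.39). These counts include the looser threshold of 0.1, which adjusted p of 0.0512 and 0.0587 pass by definition. They also include fits of fewer probe sets that leave the estimates as they were, so they are no measure of robustness.

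Within an array, the difference between 2 genes does not depend on the scaling of that array by a constant. Between the groups, however, array medians were lower and housekeeping means higher on the KO-labelled arrays, which is not a constant shift. A shift that varies with signal need not cancel between genes of unlike signal, so the pairs are not free of it. Atf4 minus Eif2ak3 was 0.34, 0.62 and 0.16 on the KO-labelled arrays, against -0.65, -1.09 and -1.22 on the WT-labelled arrays, so Atf4 changed by 1.36 ± 0.22 (SE) more than the kinase gene. Against its targets, Atf4 changed by 0.86 ± 0.20 more than Ddit3, by 1.32 ± 0.20 more than Trib3 and by 1.21 ± 0.23 more than Chac1. Xbp1 changed by 0.66 ± 0.24 more than Ern1. Its within-array values were 1.14, 1.80 and 1.18 on the KO-labelled arrays, against 0.70, 0.55 and 0.89 on the WT-labelled arrays. Atf6 changed by 1.11 ± 0.40 more than Atf6b, with 0.93, 2.11 and 0.98 on the KO-labelled arrays, against 0.42, 0.04 and 0.24 on the WT-labelled arrays. In all 6 pairs the groups did not overlap. Each pair sets Atf4, Atf6 or Xbp1, whose own groups did not overlap, against a gene whose groups did. The separation of the pairs therefore largely repeats the results of the single genes and is not further evidence. Each had an exact 2-sided permutation p of 0.1, the smallest that 3 against 3 values allow, and 0.1 after adjustment over the 6 pairs, so none could pass 0.05.

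**Figure D3:**
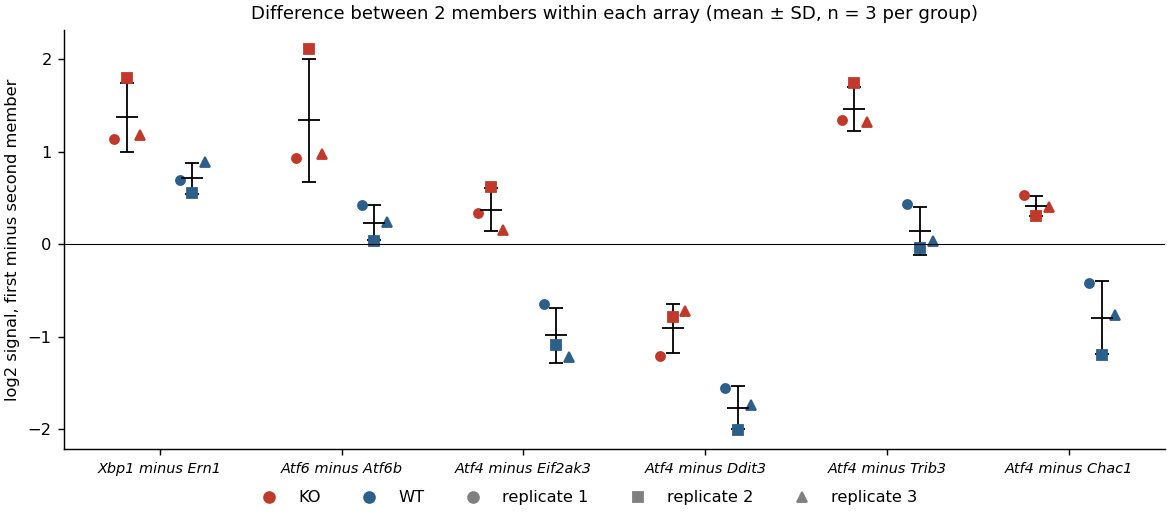
Log2 signal of the first gene minus that of the second on each array (y axis) for 6 pairs (x axis). Points are arrays, bars the mean and SD of 3 arrays, KO left of WT in each pair. In every pair the KO points lie above the WT points, with KO replicate 2 far above the other KO points for Atf6 minus Atf6b.

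Genes that work beside the 3 sensors were mixed. Their counts stand against 10.7% of protein-coding genes called higher and 10.2% called lower, and against 8 of the 14 housekeeping genes called higher and 0 lower. Of 11 measured partners of IRE1, 6 were called higher and 0 lower, with a median difference of 1.01, which is -0.32 relative to the housekeeping mean. They include Rtcb, the ligase that joins the cut Xbp1 message, at 8.79 ± 0.54 on KO-labelled and 7.41 ± 0.12 on WT-labelled arrays (SD, adjusted p = 0.0363). Ddx1, an RNA helicase of the same ligase complex, rose by 1.64 ± 0.30 (SE), and Map3k5, which encodes the kinase ASK1 downstream of IRE1, by 1.54 ± 0.31. Ube2d3, a ubiquitin-conjugating enzyme gene, rose by 1.31 ± 0.29 (adjusted p = 0.0387), or -0.02 relative to the housekeeping mean. After centring on that mean Ddx1 was at 0.31, Map3k5 at 0.21 and Rtcb at 0.06, and none of the 3 passed (adjusted p = 0.432, 0.605 and 0.888). Of 9 genes for ATF6 processing and related factors, 0 were called higher and 1 lower, with a median difference of 0.02. Creb3l4, a membrane-bound relative of ATF6, fell by 0.66 on the log2 scale (adjusted p = 0.0354), or by 0.30 relative to the median probe set. Its call ended after quantile normalization (-0.39, adjusted p = 0.0594) and after centring on the array median (-0.33, adjusted p = 0.113). Mbtps1, which encodes the protease that makes the first cut in ATF6, was at a difference of 0.23 ± 0.13 (SE) without passing (adjusted p = 0.205), and Creb3l3 and Nfyc did not pass either, at -0.41 and 0.27 (adjusted p = 0.069 and 0.143).

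Around eIF2, 7 of 14 genes were called higher and 0 lower, with a median difference of 0.59, which is -0.74 relative to the housekeeping mean. Ppp1r15b encodes CReP, the constitutive counterpart of GADD34. It read 9.30, 9.98 and 9.21 on the KO-labelled arrays, against 8.23, 8.25 and 7.83 on the WT-labelled arrays, a rise of 1.39 ± 0.25 (SE, adjusted p = 0.0354). Its groups were far apart, unlike those of Ppp1r15a. The catalytic phosphatase subunit genes Ppp1ca and Ppp1cb rose by 1.94 ± 0.37 and 0.94 ± 0.22, and Eif2s2, which encodes the beta subunit of eIF2, by 1.44 ± 0.22. Relative to the housekeeping mean Ppp1cb stood at -0.39, and Ppp1ca at 0.61, Eif2s2 at 0.11 and Ppp1r15b at 0.06 no longer passed (adjusted p = 0.133, 0.774 and 0.873). The other eIF2 alpha kinase genes, Eif2ak1, Eif2ak2 and Eif2ak4, were at differences of 0.35, 0.26 and 0.02 without passing (adjusted p = 0.0873, 0.204 and 0.895). These 3 genes lie outside the rule for naming and were chosen after their values were seen, as the relatives of PERK.

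Targets of the 3 arms were listed from general knowledge of the pathway. Of 12 measured ATF6 targets, 7 were called higher and 0 lower, with a median difference of 1.51, or 0.18 relative to the housekeeping mean, beside 8 of 14 housekeeping genes and 10.7% of protein-coding genes called higher. The list holds chaperones, folding enzymes and degradation factors of the endoplasmic reticulum. The 5 not called were Creld2, Sdf2l1 and Sel1l at 0.55, 0.46 and 0.45, Derl3 at -0.12 and Hyou1 at -0.24. Hyou1 was lower on every KO-labelled array than on any WT-labelled one. These genes lie outside the rule for naming and were chosen after their values were seen. Canx, the membrane lectin chaperone calnexin, read 11.40, 11.91 and 11.28 on the KO-labelled arrays, against 9.21, 9.23 and 9.09 on the WT-labelled arrays, a rise of 2.35 ± 0.19 (SE, adjusted p = 0.0346). Each KO-labelled value was more than 2 log2 units above each WT-labelled one. Hsp90b1, which encodes GRP94, rose by 2.49 ± 0.41, Selenos, a selenoprotein gene of degradation at the endoplasmic reticulum, by 2.04 ± 0.28, and the disulfide isomerase gene Pdia3 by 2.00 ± 0.32 (adjusted p = 0.0354 for each). Hspa5, which encodes BiP, the chaperone that restrains the sensors, read 8.42, 9.21 and 8.19 on the KO-labelled arrays, against 7.39, 7.29 and 7.08 on the WT-labelled arrays. Its rise of 1.35 ± 0.28 (adjusted p = 0.037) was 0.02 relative to the housekeeping mean. After centring on that mean Canx and Hsp90b1 still passed, at 1.02 and 1.16 (adjusted p = 0.013 and 0.00721), while Selenos at 0.71, Pdia3 at 0.67 and Hspa5 did not (adjusted p = 0.0812, 0.0965 and 0.953).

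Of 15 measured XBP1 targets, 4 were called higher and 0 lower, with a median difference of 0.50, or -0.83 relative to the housekeeping mean. Dnajb9, a cochaperone gene that also restrains IRE1, read 9.88, 10.44 and 9.96 on the KO-labelled arrays, against 7.72, 8.43 and 8.58 on the WT-labelled arrays, a rise of 1.85 ± 0.27 (SE, adjusted p = 0.0354). The translocon-associated genes Ssr3 and Ssr1 rose by 1.59 ± 0.30 and 0.77 ± 0.18, and the translocon gene Sec61b by 0.66 ± 0.16 (adjusted p = 0.042). Relative to the housekeeping mean Ssr1 stood at -0.56 and Sec61b at -0.67, and Dnajb9 at 0.52 and Ssr3 at 0.26 no longer passed (adjusted p = 0.206 and 0.509).

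Of 29 measured ATF4 and CHOP targets, 7 were called higher and 1 lower, and 21 did not pass. Their median difference was 0.12, or -1.21 relative to the housekeeping mean. The 4 with the smallest p were the transfer RNA synthetase genes Nars, Gars and Sars, which rose by 1.57 ± 0.26, 1.42 ± 0.25 and 1.41 ± 0.25, and the amino acid transporter gene Slc3a2, which rose by 1.25 ± 0.21, or -0.08 relative to the housekeeping mean (SE, adjusted p = 0.0354 for each). The other 3 called higher were Ddit4, Cebpg and Nupr1 at 1.55, 0.87 and 0.77, and the 1 called lower was Aldh1l2, a mitochondrial folate enzyme gene, at -0.56, or -0.20 relative to the median probe set. After centring on the housekeeping mean Nars, Gars and Sars stood at 0.24, 0.09 and 0.08 and no longer passed (adjusted p = 0.542, 0.819 and 0.833). Ddit4, Cebpg, Nupr1 and Aldh1l2 lie outside the rule for naming and were chosen after their values were seen. Slc3a2 read 7.94, 8.56 and 8.06 on the KO-labelled arrays, against 6.93, 7.15 and 6.73 on the WT-labelled arrays, with no overlap. Asns, the asparagine synthetase gene, read 7.64, 8.16 and 7.29 on the KO-labelled arrays, against 6.93, 7.04 and 6.90 on the WT-labelled arrays. Its groups did not overlap, and it missed the threshold (adjusted p = 0.0601). Atf3, which encodes a transcription factor induced by ATF4 under stress, read 6.38, 6.28 and 6.36 on the KO-labelled arrays, against 6.61, 6.42 and 6.42 on the WT-labelled arrays. Its difference of -0.14 ± 0.11 did not pass (adjusted p = 0.325).

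**Figure D4:**
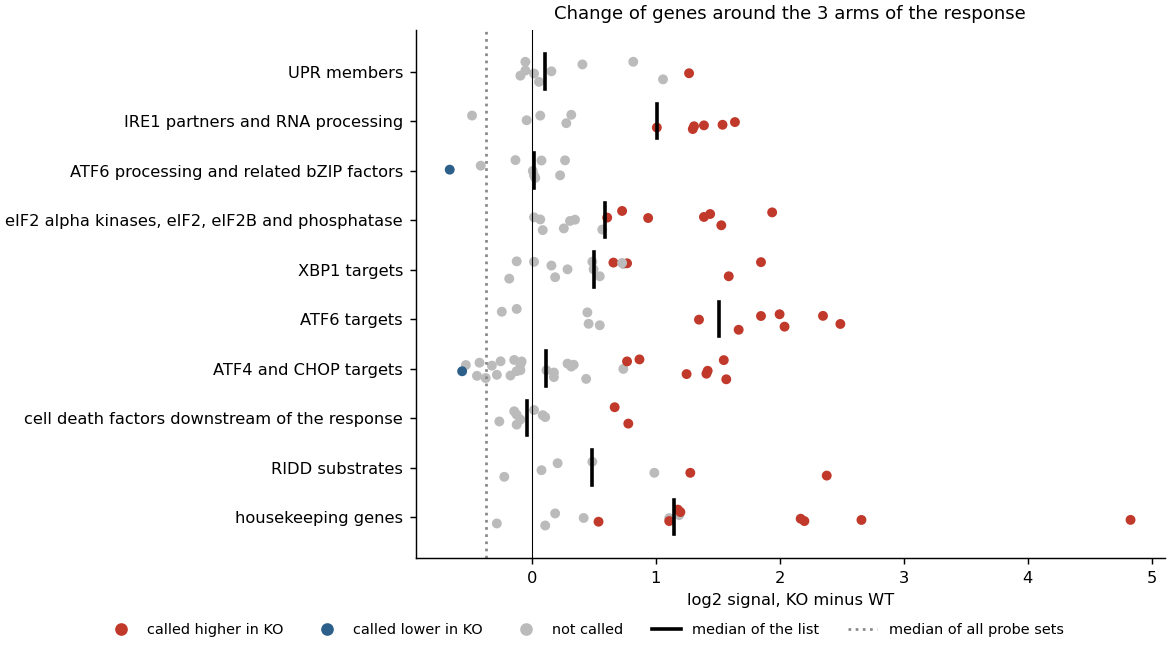
Difference in log2 signal, KO minus WT (x axis), of each measured gene in the lists around the response (y axis, the 10 response genes in the top row). Points are genes, red where called higher in KO, black ticks list medians, and the dotted line the median of all probe sets (-0.37). The ATF6 targets have the highest median of the pathway lists (1.51), and the ATF4 and CHOP targets spread from -0.56 to 1.57.

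Without KO-labelled array 2 the counts of these lists changed little. The ATF6 targets kept a count of 7 higher, the XBP1 targets 4 and the IRE1 partners 6, and the eIF2 list and the ATF4 and CHOP targets had 6 each instead of 7. Among the 10 genes of the response the count was 3 instead of 1.

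Markers of cell types moved beside these genes. The background for the counts below is 10.7% of protein-coding genes called higher and 10.2% called lower. Of the 14 housekeeping genes 8 were called higher and 0 lower. Of 11 adipocyte markers 8 were called higher and 0 lower, and the list's mean signal lay between 11.61 and 12.89 on KO-labelled and between 8.65 and 10 on WT-labelled arrays. Of 11 endothelial markers 10 were called higher and 0 lower, with mean signals of 8.77 to 9.47 on KO-labelled and 7.13 to 7.40 on WT-labelled arrays. Relative to the housekeeping mean, the median difference was 1.20 for the adipocyte and 0.17 for the endothelial markers. Of 12 macrophage markers 3 were called higher and 1 lower (means of 7.76 to 7.94 on KO-labelled and 7.38 to 7.51 on WT-labelled arrays), and of 10 progenitor and fibroblast markers 1 and 0 (means of 7.83 to 8.01 on KO-labelled and 7.49 to 7.68 on WT-labelled arrays). Of 13 lymphocyte and plasma cell markers 0 were called higher and 2 lower (means of 6.50 to 6.54 on KO-labelled and 6.65 to 6.68 on WT-labelled arrays), and of 12 mammary epithelium markers 0 and 3 (means of 6.06 to 6.42 on KO-labelled and 6.64 to 6.93 on WT-labelled arrays). The median differences of these lists, -0.39 and -0.41, were only -0.02 and -0.04 relative to the median probe set. Skeletal muscle markers averaged 8.53, 9.90 and 6.83 on KO-labelled arrays 1, 2 and 3, against 6.94 to 7.03 on the WT-labelled arrays. KO-labelled array 2, the highest for Xbp1 and Atf6, was the highest for muscle. It was also the highest for adipocyte markers (12.89), endothelial markers (9.47) and housekeeping genes (11.12). KO-labelled arrays 1 and 3 read 8.53 and 6.83 for muscle, 7.91 and 7.94 for Xbp1, 7.87 and 7.68 for Atf6, and 7.29 and 7.25 for Atf4. The few called were Lyz2, C1qb and Mertk higher and Itgam lower among macrophage markers, Dcn higher among progenitor markers, Cd79a and Ms4a1 lower among lymphocyte markers, and Krt14, Csn3 and Wap lower among mammary markers, all named after their values were seen. Irf4 of the lymphocyte list, named likewise, was at 3.10 without passing (adjusted p = 0.0551), with 12.51 on KO-labelled array 2. Without that array, macrophage markers called numbered 2 higher and 0 lower, lymphocyte markers 1 and 0, and mammary markers 0 and 1. Adipocyte and endothelial markers called higher were then 7 and 9. An array has no signal of 0, so absence of a marker could not be read. The part of these cells in the differences of Atf4, Xbp1 and Atf6 was not tested.

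Likeness of pattern was measured as the distance between profiles over the 6 arrays after subtracting each gene's mean, among 19813 named genes. Nearest to Atf4 were Saraf, which encodes a regulator of store-operated calcium entry, at 0.25 log2 units, and Tceal9 and Ccny at 0.27 each. Nearest to Atf6 were Erlec1, which encodes a lectin of degradation at the endoplasmic reticulum, at 0.09, Sidt2 at 0.16 and Spaar at 0.17. Nearest to Xbp1 were Mtmr6, the Golgi glycoprotein gene Glg1 and Magt1, which encodes a magnesium transporter and oligosaccharyltransferase subunit, at 0.14 each. Of these 9 genes Saraf, Tceal9, Ccny, Erlec1, Sidt2 and Glg1 were called higher, with differences of 0.88 to 1.31. They were picked for likeness over the same 6 arrays, so their differences and calls follow from that choice and are no separate result.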

How the data were processed

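The deposited table holds log2 signals per probe set for 6 arrays. Per the labels' protocols, RNA was labelled with a GeneChip WT Pico kit. Transcriptome Analysis Console is the only tool in the submitters' processing notes. The sources used here do not name the background correction, normalization, genome build or scan dates, so batches were not examined. Values ran from 2.81 to 19.93. Of 65956 probe sets, 31258 had exactly 1 gene symbol in GEO's platform annotation after updating names through RefSeq (GRCm38.p6), 1492 several and 33206 none.

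The deposited log2 values were fitted with limma 3.58.1 in R 4.3.3 (lmFit, eBayes without trend, genotype as the only term), with Benjamini-Hochberg adjustment over all probe sets. The fit was run on simulated arrays with independent noise and known changes in few probe sets. Those lacked the shifts between arrays seen here, so they do not check the calls under such shifts. Pairs of genes were compared with exact permutation tests in scipy 1.17.1. The genes and lists were chosen with earlier results of these data known. Named were the 10 genes, Tfg, Hspa5, Hsp90b1, Dnajb9, Atf3 and Asns, the up to 4 genes per list with the smallest p, and the 3 nearest profiles of Xbp1, Atf6 and Atf4, and exceptions are marked. Alternatives covered scaling, dim probe sets, variance models, array weights, a block on the replicate number, single-symbol probe sets, means over probe sets, a looser threshold and each array left out. The number of arrays limits the precision. p-values measure the spread between samples labelled as biological replicates.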

Additional observations from a re-analysis of the deposited data

How the results depend on the processing

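Leaving out 1 array left 0 to 3469 probe sets called higher and 0 to 10697 lower, and 0 to 3 of the 10 response genes. The counts of 0 came without KO-labelled array 3 or any WT-labelled array, where limma gave 28697, 23757, 25102 and 21579 probe sets at an unadjusted p under 0.05 (WT-labelled arrays in the order 1 to 3 after the KO-labelled array). Chac1 then ranged from -0.08 to 0.20, Ppp1r15a from -0.02 to 0.08 and Atf6b from -0.14 to 0.01. Response genes called higher numbered 2 after median centring, without the dimmest probe sets (mean under 6.21), and with eBayes trend or trend and robust, and 3 with array weights, with single-symbol probe sets or at an adjusted p under 0.1. Probe sets called lower numbered 2212 after quantile normalization, 3259 after median centring, 17432 with array weights and 6773 of single-symbol probe sets. At an adjusted p under 0.1, 5902 were higher and 24774 lower. Centring on the housekeeping mean gave 558 higher and 60587 lower, with 0 response genes higher and 7 lower, and turned these differences negative: Ern1 -1.17, Xbp1 -0.51, Atf6 -0.27, Atf4 -0.06, Ddit3 -0.92, Ppp1r15a -1.31, Chac1 -1.27, Tfg -1.19, Asns -0.59, Ube2d3 -0.02, Nfyc -1.06, Mbtps1 -1.10, Ppp1cb -0.39, Ssr1 -0.56, Sec61b -0.67, Slc3a2 -0.08, Mcl1 -0.55, Bcl2l1 -0.66, Bloc1s1 -0.05, Pdgfrb -0.84, Hgsnat -0.34, Mtmr6 -0.49, Glg1 -0.45, Magt1 -0.48, Erlec1 -0.23, Sidt2 -0.23, Spaar -0.30, Saraf -0.02, Tceal9 -0.22, Ccny -0.20. Quantile normalization turned positive Atf6b 0.29, Eif2ak3 0.21, Trib3 0.31, Atf3 0.22, Casp4 0.10, Casp12 0.13, and median centring Atf6b 0.28, Eif2ak3 0.24, Trib3 0.28, Atf3 0.19, Casp4 0.07, Casp12 0.19. Of the genes named by the rule and called higher outside the 10, only Hsp90b1, Canx and Sparc still passed after housekeeping centring, and Sidt2 lost its call after quantile normalization (1.32, adjusted p = 0.058). With array weights Chac1 was -0.04. The replicate number as a block called 2960 higher, 8267 lower and 1 response gene. The labels do not say what shared numbers mean, and the deviations of same-numbered arrays correlated at 0.002, 0.205 and 0.139, so the numbers were not taken as pairs. KO-labelled array 1 correlated better with WT-labelled array 3. Under that replicate block Ppp1cb, Ssr1, Sec61b, Glg1, Erlec1 and Sidt2 no longer passed. The list counts without KO-labelled array 2 were chosen after seeing the data. The 6 differences within pairs kept their direction under quantile normalization, the mean of probe sets and each array left out. Without detection calls, signal over background sets no limit that could be stated.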

Other observations

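Genes for the execution of cell death below the response were largely without a call. Of 10 measured, 2 were called higher and 0 lower, with a median difference of -0.04, against -0.37 over all probe sets. That count is near the background, since 10.7% of protein-coding genes were called higher and 10.2% lower. Those called were Mcl1 and Bcl2l1, both known as inhibitors of apoptosis. Mcl1 read 7.42, 7.86 and 7.63 on the KO-labelled arrays, against 6.78, 7.0 and 6.80 on the WT-labelled arrays (rise of 0.78 ± 0.15, SE, adjusted p = 0.0361), and Bcl2l1, which encodes BCL-XL, rose by 0.67 ± 0.14 (adjusted p = 0.0382). Relative to the housekeeping mean they stood at -0.55 and -0.66. Without KO-labelled array 2 only 1 of the list was called, since Bcl2l1 no longer passed. The caspase genes Casp12 and Casp4 were at -0.14 and -0.26 without passing (adjusted p = 0.296 and 0.176).

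RIDD substrates are messages that active IRE1 is known to cut, in addition to Xbp1. Of 7 measured, 2 were called higher and 0 lower, with a median difference of 0.49, beside 8 of 14 housekeeping genes called higher. Bloc1s1, a lysosome positioning gene often used to read this activity, read 8.63, 9.19 and 8.25 on the KO-labelled arrays, against 7.40, 7.41 and 7.43 on the WT-labelled arrays (rise of 1.28 ± 0.24, SE, adjusted p = 0.0359), and -0.05 relative to the housekeeping mean. Sparc, a matrix protein gene, rose by 2.38 ± 0.38 (adjusted p = 0.0354). Pdgfrb, also in the progenitor list, and Hgsnat were at 0.49 and 0.99 without passing (adjusted p = 0.0717 and 0.0929).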
